A study of Mus musculus with 6 samples.

Results

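The mitochondrial ribosomal proteins are the nuclear-encoded proteins of the ribosome that works inside mitochondria. They were taken as every probe set whose single gene symbol on the array platform begins with Mrpl (large subunit) or Mrps (small subunit). This gave 127 probe sets for 74 genes, out of 22690 probe sets on the array. Of these, 88 probe sets stood for 47 Mrpl genes and 39 for 27 Mrps genes. A further 3 probe sets name such a gene together with another gene and were left out. The tissue was brown fat of mice of mixed C57BL6 and 129 background, 3.5 months old, after 3 months of high fat diet. All mice carried floxed alleles of Yy1 (YY1flox/flox), and the YY1bKO group had Ucp1Cre in addition, so that recombination follows the Ucp1 promoter, which is active in brown adipocytes. Endothelial, immune and other cells of the depot are therefore not targeted, and fewer cells of a type and less RNA per cell cannot be told apart in RNA of whole tissue. There were 3 arrays of each genotype.

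The mitochondrial ribosome translates the few messenger RNAs of the mitochondrial genome, all of which encode membrane subunits of the respiratory chain and ATP synthase. Its ribosomal RNAs come from mitochondrial DNA, while its proteins are made in the cytosol and imported. Some of these proteins have a counterpart in bacterial ribosomes and others exist in mitochondria alone. Brown fat is dense in mitochondria, and its heat production rests on the respiratory chain that this ribosome helps to build. YY1 is a zinc finger protein that binds DNA near the start sites of many genes, mitochondrial ones among them. The comparison asks which of these transcripts differ when brown adipocytes lack YY1 under high fat feeding.

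The labels were checked on Yy1 and on cell type markers. The brightest probe set of Yy1 read 9.90, 9.62 and 9.95 in control and 8.38, 8.41 and 8.38 in YY1bKO arrays on the log2 intensity scale, a difference of -1.43 ± 0.11 (SE; limma adjusted p = 0.000887). The fat markers Ucp1, Adipoq and Fabp4 were bright in all arrays, the lowest log2 intensity of Ucp1 being 13.71. Of 11 brown adipocyte markers 1 was called higher (Elovl3) and 0 lower. The others had negative log2 fold changes except Lipe (0.002), and the median over the 11 was -0.19. Among the uncalled ones Dio2 gave -0.87 (limma adjusted p = 0.179) and Plin5 -0.40 (limma adjusted p = 0.0559). Control replicate 2 stood apart by muscle RNA: the mean log2 intensity of 14 skeletal muscle markers was 13.59 there, the highest of the controls, whose lowest was 10.73. In YY1bKO arrays this mean lay between 11.91 and 12.37. In each of these markers control replicates 1 and 3 read below every YY1bKO array, and control replicate 2 above. Ckm, for example, read 10.82, 13.75 and 10.74 in control and 12.29, 12.62 and 12.06 in YY1bKO arrays. No muscle marker was called, and their median log2 fold change was 0.42. A fit with the muscle marker mean as a covariate is given in the closing section. Of 7 endothelial markers 3 were called lower (Cdh5, Kdr and Tek) and 0 higher, and their mean lay between 8.03 and 8.27 in control and between 7.53 and 7.76 in YY1bKO arrays. The part of endothelial cells in the results on ribosomal proteins was not tested. No macrophage (8), fibroblast (7), erythroid (3) or lymphocyte (7) marker was called, and all lymphocyte markers were dim. Of 6 white adipocyte markers 1 was higher (Psat1) and 1 lower (Lep).

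Mitochondrial ribosomal protein genes moved in both directions in YY1bKO tissue. In a limma fit over all probe sets, with p-values adjusted over all 22626 tested, 19 member probe sets were higher and 23 were lower at an adjusted p under 0.05. That is 33.1% of the members, beside 16% of all probe sets and 24.5% of the probe sets above the median intensity. In either direction the background was 8.83% higher and 7.16% lower. Called changes were moderate: the groups differed by at least 2-fold in 2 called probe sets, both of Mrpl19 and both lower.

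The subunits were read apart by gene symbol, so that Mrps18a, Mrps30 and Mrps36, whose proteins lie outside the small subunit, count with Mrps. Of the 88 Mrpl probe sets 9 were higher and 10 lower, which is 21.6% and lies near the background of bright probe sets. Of the 39 Mrps probe sets 10 were higher and 13 lower, which is 59.0%. Counted by genes, each through its brightest probe set, 7 Mrpl genes were higher and 7 lower of 47, and 9 Mrps genes were higher and 7 lower of 27. By the same count 9.72% of all genes were higher and 7.78% lower, and a fit with 1 row per gene called 18.3% of all genes. These shares include dim genes, while every member gene read above the median intensity, from 8.13 (Mrpl) and 8.45 (Mrps) upwards. Of Mrpl genes 29.8% were called and of Mrps genes 59.3%, beside 24.5% of the probe sets above the median intensity. The Mrpl share thus lies near that of bright probe sets. The shares of the subunits were not compared by a test. Counts of rises were lower in each fit without 1 array, except that without control replicate 2. Mrpl probe sets called higher numbered 3 and 6 without control replicate 1 or 3. They numbered 0 without YY1bKO replicate 1 or 2, and 2 without YY1bKO replicate 3. Mrps probe sets called higher numbered 4 to 6 without any array except control replicate 2. Mrps probe sets called lower numbered 6 without control replicate 1 or 3 or YY1bKO replicate 1 or 3, and 8 without YY1bKO replicate 2. The Mrpl falls numbered 7 to 10 in these fits. The share called over all probe sets fell as well, to 8.01% and 12.3% without control replicate 1 or 3. It was 6.99%, 6.76% and 7.18% without YY1bKO replicate 1, 2 or 3, and rose to 22.5% without control replicate 2. The median absolute log2 fold change was 0.18 over Mrpl, 0.36 over Mrps and 0.17 over all probe sets.

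Neither subunit moved one way as a whole. The median log2 fold change was 0.06 over the Mrpl probe sets, beside 0.03 over all probe sets. Over the Mrps probe sets it was -0.14 but over Mrps genes, 1 probe set each, 0.17, because several of the lower genes are covered by more than 1 probe set. The median log2 intensities of the member probe sets in single arrays overlapped between groups in both subunits. For Mrpl they were 9.60, 9.51 and 9.68 in control and 9.64, 9.68 and 9.63 in YY1bKO, and for Mrps 9.83, 9.79 and 9.93 in control and 9.85, 9.89 and 9.90 in YY1bKO.

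**Figure D1:**
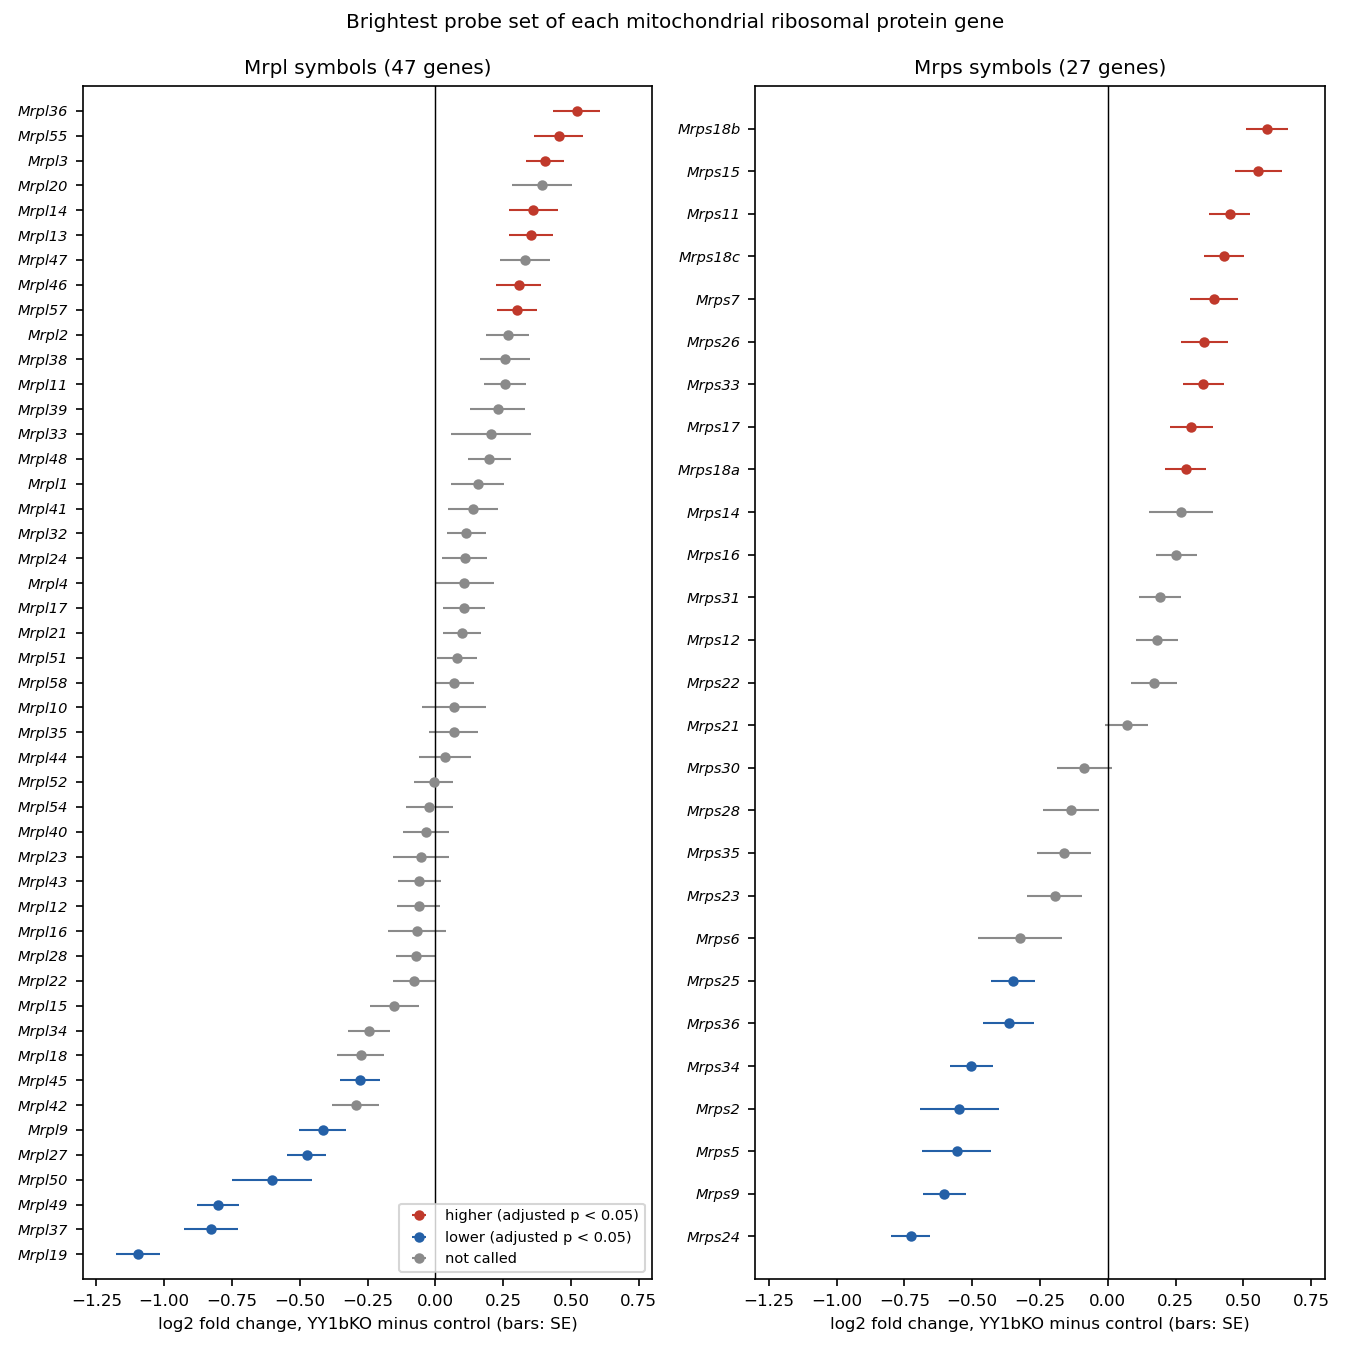
Log2 fold change, YY1bKO minus control, of the brightest probe set of each gene, with moderated standard errors as bars, for 47 Mrpl genes (left) and 27 Mrps genes (right). Red marks genes called higher, blue genes called lower and grey genes not called. The changes run from -1.10 for Mrpl19 to 0.59 for Mrps18b, with called genes at both ends of each panel.

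The proteins were also grouped by ancestry, with the shares of all genes, 9.72% higher and 7.78% lower, as the background of each count. That background includes dim genes, while none of these proteins was read by a dim probe set. Of 29 large subunit proteins with a bacterial counterpart 5 were higher and 3 lower, with a median log2 fold change of 0.11. Of 18 large subunit proteins specific to mitochondria 2 were higher and 4 lower, with a median of 0.01. In the small subunit 5 were higher and 4 lower of 15 with a bacterial counterpart (median 0.18), and 3 were higher and 2 lower of 9 specific to mitochondria (median 0.17). Several of these counts lie near the background, and the classes were not compared by a test.

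The sequences around the start sites hold motifs that the choice of members did not use. In RefSeq promoters of GRCm38.p6, running from 250 bases before to 50 bases after a start, 65 of the 74 genes had 71 entries. Mrpl4, Mrpl13, Mrpl15, Mrpl19, Mrpl38, Mrpl54, Mrps28, Mrps34 and Mrps35 were not matched. The YY1 core was searched on both strands as AANATGGCG and in a short form as AAGATGGC, which overlap each other, so a promoter with either counts once. Either core was found in 14 of 71 member promoters, or 19.7%, against 3.70% of all 32851 promoters in the table. That background was not limited to protein-coding or expressed genes, nor matched in base composition. The contrast is therefore not specific to mitochondrial ribosomal genes as far as was tested. The matches are shown for the 8 called genes that have one, because these are the members whose change and YY1 letters can be read together. Each line gives up to 10 bases on either side, 5′ to 3′ on the strand of the match, with the matched letters in capitals.

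Mrpl27 (lower; chr11:94653789-94653817, + strand): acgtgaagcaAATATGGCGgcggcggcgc
Mrpl37 (lower; chr4:107066822-107066850, - strand): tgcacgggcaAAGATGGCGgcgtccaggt
Mrpl49 (lower; chr19:6057722-6057749, - strand): ttgaggcgccAAGATGGCagcagcggtg
Mrps24 (lower; chr11:5707652-5707675, - strand): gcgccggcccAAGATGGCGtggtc
Mrpl36 (higher; chr13:73330968-73330996, - strand): gccaggaagaAAGATGGCGtaaggtcacg
Mrps7 (higher; chr11:115604148-115604175, + strand): gacagcggccAAGATGGCtgcccccgcg
Mrps11 (higher; chr7:78783013-78783041, - strand): ggaagacagaAAGATGGCGgcgcccgtag
Mrps18a (higher; chr17:46111005-46111033, + strand): ggtgcgttccAAGATGGCGgccctcaggg

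The same letters thus stood near genes that rose and near genes that fell. Among promoters of genes called lower 4 of 12 held either YY1 core, among those called higher 4 of 15, and among those not called 6 of 44. Some uncalled genes have several promoters, and by gene their count was 6 of 38. The remaining 6 matches belonged to Mrpl32, Mrpl35, Mrpl42, Mrpl58, Mrps12 and Mrps30. Of the 14 matches 10 lay after the start site, beginning between base 9 and base 37 of the transcript, all on the strand of the gene. The other 4 lay before it, all on the opposite strand, in Mrpl32, Mrpl36, Mrps11 and Mrps12. The letters of the core include ATG, the start codon, so that a match on the gene's strand after the start site can also be the start of the coding sequence. In Mrpl32, Mrps11 and Mrps12 the matches began at -242, -108 and -199. The neighbours Psma2, Mrpl46 and Sars2 start on the opposite strand, 205, 42 and 147 bases from these genes. Those matches thus lay after the neighbour's start site and on its strand, where they can likewise be the start of its coding sequence. Whether YY1 sits on any of these sites was not measured here.

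Motifs of other regulators of mitochondrial genes were counted in the same way, against the same unmatched background. The core of NRF1, a factor that activates nuclear genes for mitochondrial proteins, was searched on both strands by its GC-rich core and lay in 16.9% of member promoters against 4.60% of all promoters. The core CCGGAAG, shared by ETS factors such as GABP, lay in 33.8% of member promoters against 8.86%. By direction, the ETS core was found in 7 of 15 promoters of higher genes, in 16 of 44 of genes not called and in 1 of 12 of lower genes, that of Mrpl27. Counted by gene, it was 16 of 38 uncalled genes (42.1%) beside 7 of 15 higher ones (46.7%). The numbers are small and were not tested. Member genes often stood head to head with a neighbour: 24 of 65, or 36.9%, had a start site on the opposite strand within 1000 bases. Of all genes with a promoter entry, likewise not matched to the members, it was 12.3%. Mrpl46 and Mrps11 form such a pair with each other, their starts 42 bases apart, and both were higher.

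**Figure D2:**
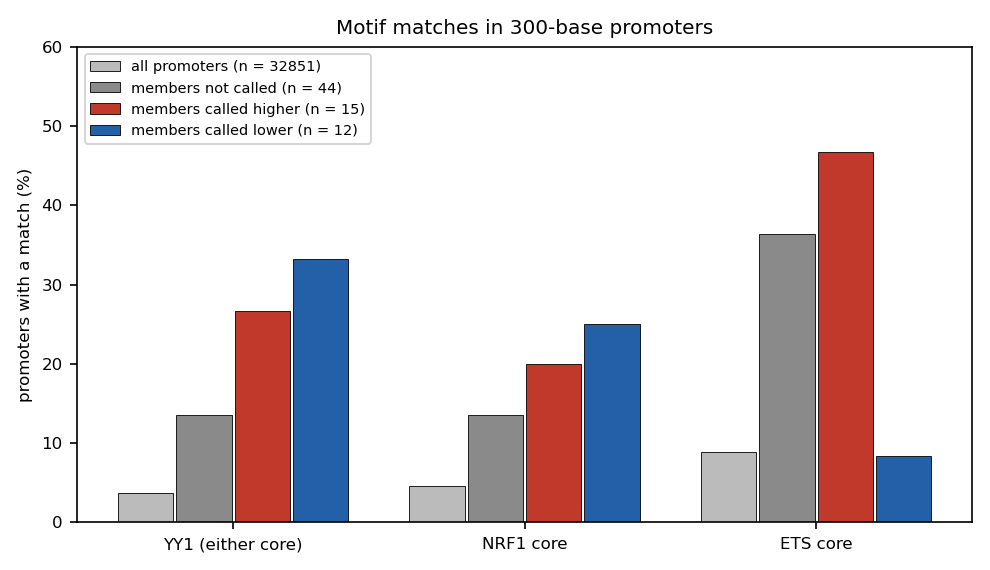
Percentage of 300-base promoters with at least 1 match to either YY1 core, the NRF1 core or the ETS core, for all 32851 promoters in the table (light grey) and for member genes not called (dark grey), called higher (red) and called lower (blue). Member promoters held YY1 matches in every class, and ETS matches in 1 of 12 promoters of lower genes.

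Among large subunit genes that fell, Mrpl19, the counterpart of bacterial L19, changed most. Its brightest probe set read 8.83, 8.78 and 8.73 in control and 7.71, 7.75 and 7.58 in YY1bKO arrays. The groups lay far apart, at -1.10 ± 0.08 log2 units (SE, n = 3 per group), or 2.14-fold lower (limma adjusted p = 0.000939). Another probe set gave -1.22 (adjusted p = 0.00119), while the dimmest, with group means of 3.60 (control) and 3.47 (YY1bKO), differed by -0.14 (adjusted p = 0.340). Its brightest probe set and those of Mrpl37 and Mrps24 are of the kind whose probes can match more than 1 transcript (name ending in _s_at).

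Mrpl37 and Mrpl49, both specific to mitochondria, carry the YY1 letters printed above. Mrpl37 read 8.53, 8.51 and 8.60 in control and 7.59, 7.90 and 7.66 in YY1bKO arrays, a log2 difference of -0.83 ± 0.10 (SE; limma adjusted p = 0.00406). Mrpl49 read 8.82, 8.84 and 8.87 in control and 8.10, 8.07 and 7.95 in YY1bKO arrays, a log2 difference of -0.80 ± 0.08 (SE; limma adjusted p = 0.00198), and its other probe set gave -0.53 (adjusted p = 0.00871). All YY1bKO values of both genes lay below all control values. Mrpl27, whose bacterial counterpart L27 reaches towards the peptide-forming centre, read 10.47, 10.44 and 10.51 in control and 10.03, 10.003 and 9.97 in YY1bKO arrays, which is -0.48 ± 0.07 (SE, adjusted p = 0.00801). These 4 genes stayed called whichever single array was left out.

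The other 3 falls of the large subunit were less firm. Mrpl50, a mitochondria-specific protein, read 9.41, 9.16 and 9.61 in control and 8.98, 8.81 and 8.59 in YY1bKO arrays (log2 difference -0.60 ± 0.15, SE, adjusted p = 0.0366). A dimmer probe set of Mrpl50 gave -0.78 with less spread (adjusted p = 0.00406). Mrpl9, with a bacterial counterpart, fell by 0.42 on the log2 scale (adjusted p = 0.0208), and its other probe set gave -0.37 and was not called (adjusted p = 0.118). Mrpl45, which sits at the exit of the peptide tunnel by the inner membrane, fell by 0.28 (adjusted p = 0.0488). The Mrpl50 and Mrpl9 calls were lost without control replicate 1, control replicate 3 or any YY1bKO array, with an adjusted p of up to 0.120 and 0.0831. That of Mrpl45 was lost without any of the 6 arrays (adjusted p 0.0641 to 0.156), after quantile normalization and with the trend and robust options.

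Large subunit genes that rose did so by 1.23-fold to 1.43-fold. Mrpl36, the counterpart of a small bacterial protein, read 8.98, 9.12 and 9.15 in control and 9.64, 9.66 and 9.51 in YY1bKO arrays, a log2 difference of 0.52 ± 0.09 (SE; limma adjusted p = 0.0108). Mrpl3 read 10.08, 10.08 and 10.12 in control and 10.48, 10.50 and 10.51 in YY1bKO arrays, a log2 difference of 0.40 ± 0.07 (SE; limma adjusted p = 0.0123). Mrpl55 read 9.59, 9.47 and 9.72 in control and 9.98, 10.09 and 10.06 in YY1bKO arrays, a log2 difference of 0.45 ± 0.09 (SE; limma adjusted p = 0.0197). In these 3 genes the groups did not overlap. The other Mrpl3 probe sets gave 0.29 (adjusted p = 0.0701) and, at dim intensity, 0.18 (adjusted p = 0.227), and were not called. Mrpl14 rose by 0.36, Mrpl13 by 0.35, Mrpl46 by 0.31 and Mrpl57 by 0.30, with adjusted p-values of 0.0395, 0.0291, 0.0498 and 0.0350. A dimmer probe set of Mrpl57 rose by 0.71 (adjusted p = 0.0204), while the other Mrpl13 probe sets gave 0.19 and 0.17 and were not called (adjusted p = 0.192 and 0.246). Mrpl51 was called higher in a dimmer probe set (0.44, adjusted p = 0.0245) and not in its brightest (0.08, adjusted p = 0.517).

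Each of these 7 calls was lost on leaving out at least 1 array. The Mrpl36 call was lost without YY1bKO replicate 1 or 2 (adjusted p up to 0.0515) and that of Mrpl3 without any YY1bKO array (up to 0.0543). The Mrpl55 call was lost without control replicate 1 or any YY1bKO array (up to 0.0793). Those of Mrpl13, Mrpl14 and Mrpl57 were lost without control replicate 1, control replicate 3 or any YY1bKO array, with adjusted p-values up to 0.109, 0.130 and 0.122. The Mrpl46 call was lost without any array except control replicate 3 (up to 0.154) and after median centring, and that of Mrpl13 in the mean over its probe sets.

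Among small subunit genes that fell, Mrps24, the counterpart of bacterial S3 at the entry of the messenger RNA, changed most. Its brightest probe set read 10.78, 10.78 and 10.72 in control and 10.02, 10.05 and 10.03 in YY1bKO arrays, a log2 difference of -0.73 ± 0.07 (SE; limma adjusted p = 0.00205). The other Mrps24 probe set, whose name also ends in _s_at, gave -0.71. In both probe sets the groups were far apart beside the spread within them. Mrps9, with a bacterial counterpart, read 10.16, 10.04 and 10.03 in control and 9.49, 9.52 and 9.41 in YY1bKO arrays, a log2 difference of -0.60 ± 0.08 (SE; limma adjusted p = 0.00512). All 4 Mrps9 probe sets were negative, from -0.60 to -0.32, and 3 of them were called. The called one at -0.34 has a name ending in _x_at, a kind whose probes can also match other transcripts. Mrps34, a mitochondria-specific protein needed for a stable small subunit, read 11.21, 11.07 and 11.21 in control and 10.67, 10.68 and 10.62 in YY1bKO arrays, a log2 difference of -0.50 ± 0.08 (SE; limma adjusted p = 0.00899). The calls of Mrps24, Mrps9 and Mrps34 held whichever array was left out.

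Mrps5 and Mrps2 are counterparts of bacterial S5 and S2. Their brightest probe sets varied more within both groups than those of Mrps24, Mrps9 and Mrps34. Mrps5 read 8.80, 8.57 and 8.80 in control and 8.12, 8.39 and 7.998 in YY1bKO arrays (-0.56 ± 0.13, SE, adjusted p = 0.0284), and its other probe set gave -0.57. Mrps2 read 10.08, 9.87 and 10.27 in control and 9.42, 9.76 and 9.39 in YY1bKO arrays (-0.55 ± 0.14, SE, adjusted p = 0.0462). In these probe sets YY1bKO replicate 2 was the highest of its group, still below every control array. The other Mrps2 probe set gave -0.39 and was not called (adjusted p = 0.203), its groups overlapping, with YY1bKO replicate 2 at 6.86 above control replicate 2 at 6.63. The mitochondria-specific Mrps25 fell in all of its 3 probe sets, by 0.35 to 0.67, of which the strongest changes were at dim intensity. Both the Mrps5 and the Mrps2 call were lost without control replicate 1, control replicate 3, YY1bKO replicate 1 or YY1bKO replicate 3, with an adjusted p of up to 0.102 and 0.151. That of Mrps2 was also lost after quantile normalization, in the mean over probe sets and with a pseudocount of 16. The Mrps25 call (adjusted p = 0.0306) was lost without any array except control replicate 2 (up to 0.113).

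Small subunit genes that rose were led by Mrps18b and Mrps15. Mrps18b read 9.77, 9.66 and 9.77 in control and 10.27, 10.33 and 10.35 in YY1bKO arrays, a log2 difference of 0.59 ± 0.08 (SE; limma adjusted p = 0.00494). Mrps15, the counterpart of bacterial S15, read 10.73, 10.64 and 10.66 in control and 11.33, 11.11 and 11.25 in YY1bKO arrays, a log2 difference of 0.56 ± 0.09 (SE; limma adjusted p = 0.00899), and its other probe set gave 0.58. Mrps11, the head-to-head neighbour of Mrpl46, read 8.31, 8.22 and 8.20 in control and 8.68, 8.71 and 8.68 in YY1bKO arrays, a log2 difference of 0.45 ± 0.07 (SE; limma adjusted p = 0.0103). A dim Mrps11 probe set gave 0.14 and was not called (adjusted p = 0.276). The groups were well apart in the brightest probe sets of all 3 genes, and the calls held whichever array was left out. Mrps7 rose by 0.39, Mrps26 by 0.36, Mrps33 by 0.35 and Mrps17 by 0.31, with adjusted p-values of 0.0274, 0.0347, 0.0254 and 0.0421. The Mrps7 call was lost without control replicate 1 or any YY1bKO array (up to 0.0997). Those of Mrps26, Mrps33 and Mrps17 were lost without any array except control replicate 2, with adjusted p-values up to 0.124, 0.0956 and 0.139.

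The Mrps18 genes encode 3 related proteins, and all 3 rose. The Mrps18c protein takes the place of bacterial S18 in the small subunit, the Mrps18b protein sits elsewhere in it, and the Mrps18a protein belongs to the large subunit despite its name. Mrps18c read 10.55, 10.58 and 10.52 in control and 11.04, 10.98 and 10.92 in YY1bKO arrays, a log2 difference of 0.43 ± 0.07 (SE; limma adjusted p = 0.0124). Leaving out YY1bKO replicate 1 or 2 ended that call (adjusted p up to 0.0570). Mrps18a read 9.86, 9.93 and 9.93 in control and 10.18, 10.25 and 10.14 in YY1bKO arrays, a log2 difference of 0.29 ± 0.08 (SE; limma adjusted p = 0.0451), a call that ended on leaving out any array except control replicate 2 (up to 0.150). Mrps30 likewise names a protein of the large subunit. It read 9.07, 8.88 and 9.18 in control and 8.89, 8.94 and 9.04 in YY1bKO arrays, overlapping groups with a log2 difference of -0.09 ± 0.10 (SE; limma adjusted p = 0.630). Mrps36 carries a ribosomal symbol for a protein that serves the oxoglutarate dehydrogenase complex of the tricarboxylic acid cycle. It read 11.60, 11.46 and 11.73 in control and 11.18, 11.24 and 11.28 in YY1bKO arrays, a log2 difference of -0.36 ± 0.09 (SE; limma adjusted p = 0.0419). That call ended on leaving out any array except control replicate 2 (up to 0.139), and after quantile normalization.

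**Figure D3:**
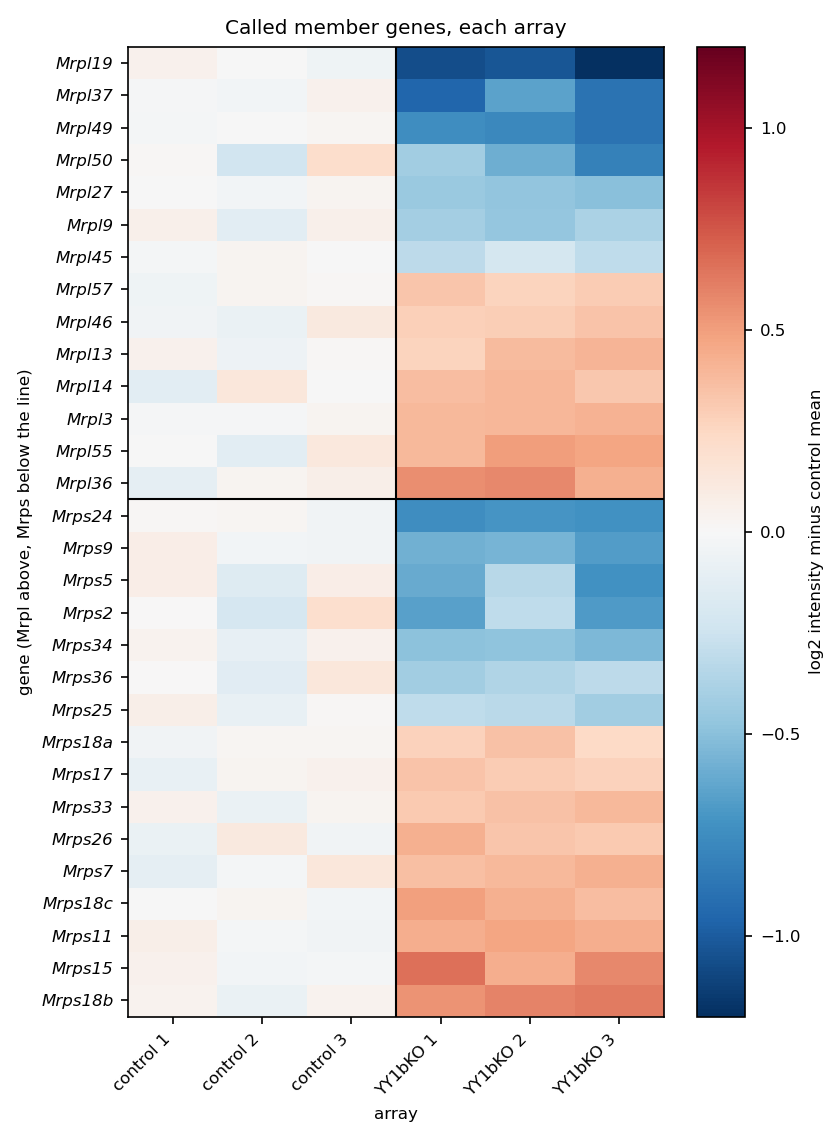
Log2 intensity of each of the 6 arrays minus the mean of the 3 control arrays, for the brightest probe set of the 14 called Mrpl genes (above the horizontal line) and the 16 called Mrps genes (below it). Blue is lower and red is higher than the control mean, and in each of these genes the 3 YY1bKO arrays lie on 1 side of the 3 control arrays. The genes were picked by their calls in these same arrays, so this separation is no further evidence.

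Genes that were not called were spread around 0. Among Mrpl genes 33 were not called, with log2 fold changes from -0.29 (Mrpl42) to 0.39 (Mrpl20). Within 0.1 of 0 lay 15 of them: Mrpl10, Mrpl12, Mrpl16, Mrpl21, Mrpl22, Mrpl23, Mrpl28, Mrpl35, Mrpl40, Mrpl43, Mrpl44, Mrpl51, Mrpl52, Mrpl54 and Mrpl58. A further 14 had values of 0.11 or more, namely Mrpl1, Mrpl2, Mrpl4, Mrpl11, Mrpl17, Mrpl20, Mrpl24, Mrpl32, Mrpl33, Mrpl38, Mrpl39, Mrpl41, Mrpl47 and Mrpl48. The remaining 4, Mrpl15, Mrpl18, Mrpl34 and Mrpl42, had values of -0.15 or less. Mrpl47 came closest to the threshold, with 0.33 ± 0.09 (SE, adjusted p = 0.0550). Mrpl42, read at 12.10, 12.30 and 12.12 in control and 11.88, 11.93 and 11.83 in YY1bKO arrays, had an adjusted p of 0.0633 although its groups did not overlap.

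Among Mrps genes 11 were not called, with Mrps30, a large subunit protein, counted here by its symbol. Mrps14, Mrps16, Mrps31, Mrps12, Mrps22 and Mrps21 had values from 0.27 down to 0.07, and Mrps30, Mrps28, Mrps35, Mrps23 and Mrps6 from -0.09 down to -0.32. Groups did not overlap in 15 of the 33 uncalled Mrpl genes and in 4 of the 11 uncalled Mrps genes. Over all member probe sets they did not overlap in 61.4%, beside 36.2% of all probe sets. The latter share covers dim and called probe sets alike, while 108 of the 127 member probe sets lay above the median intensity. It was not counted for bright or uncalled probe sets alone.

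Probe sets of the same gene mostly had changes of the same sign. Of 33 genes with several probe sets, 0 had probe sets called in opposite directions, and in 7 every probe set was called. Among the 25 genes with several probe sets above the median intensity, 22 had changes of 1 sign, and the exceptions Mrpl28, Mrpl35 and Mrpl44 had no call. In Mrpl15 the sign went with intensity: its 4 brighter probe sets gave -0.30 to -0.15 and its 3 dim ones 0.06 to 0.21, and none was called. Of the 127 member probe sets 19 were dim, meaning at or below the median log2 intensity of 6.48, and 2 of these were called, both of Mrps25.

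**Figure D4:**
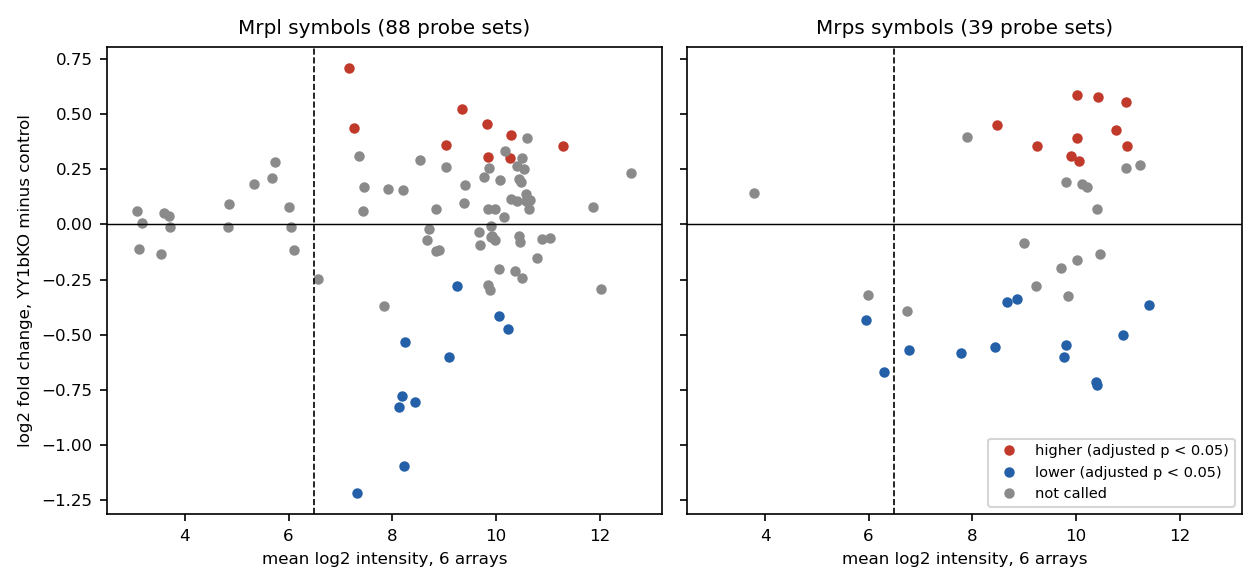
Mean log2 intensity over the 6 arrays (horizontal) against log2 fold change, YY1bKO minus control (vertical), of each of the 88 Mrpl (left) and 39 Mrps (right) probe sets. Red and blue mark probe sets called higher and lower, and the dashed line is the median intensity of all probe sets, 6.48. Of 19 dim member probe sets 2 were called. No called Mrpl probe set lay above 11.28, while Mrpl probe sets reached 12.6. The brightest Mrps probe set, at 11.41, was called lower.

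Proteins of the same ribosome that do not carry the prefix were few on the array. Of 4 measured, none of them dim, 1 was higher and 1 lower, beside 9.72% and 7.78% of all genes, dim ones included. Gadd45gip1, a large subunit protein, read 9.04, 8.93 and 8.95 in control and 7.85, 7.87 and 7.80 in YY1bKO arrays, a log2 difference of -1.13 ± 0.08 (SE; limma adjusted p = 0.000722). Dap3, a GTP-binding protein of the small subunit, read 10.41, 10.34 and 10.57 in control and 10.88, 10.82 and 10.81 in YY1bKO arrays, a log2 difference of 0.40 ± 0.09 (SE; limma adjusted p = 0.0267). The Dap3 call was lost without control replicate 1 or any YY1bKO array (up to 0.0990). Chchd1 gave -0.21 and Ptcd3 0.01, neither called.

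Factors that assemble this ribosome or modify its RNA were also split, with 4 higher and 2 lower of 17 measured. Their median log2 fold change was 0.15. The background was 9.72% and 7.78% of all genes, dim ones included, while none of the 17 was dim. Rpusd4, a pseudouridine synthase of the mitochondrial large ribosomal RNA, read 7.19, 7.35 and 7.38 in control and 6.23, 6.07 and 6.24 in YY1bKO arrays (-1.13 ± 0.09, SE, adjusted p = 0.00124). Fastkd2, a protein that binds the same RNA, went the other way, from 9.14, 9.31 and 9.06 in control to 10.16, 10.19 and 9.97 in YY1bKO arrays (0.93 ± 0.10, SE, adjusted p = 0.00302). Nsun4, which methylates the small ribosomal RNA and helps to join the subunits, fell by 0.61 (adjusted p = 0.00561), and the RNA helicase Dhx30 rose by 0.39 (adjusted p = 0.0142). The Dhx30 probe set is also of the _x_at kind. The Dhx30 call was lost without any YY1bKO array (up to 0.0616), and those of Rpusd4, Fastkd2 and Nsun4 held whichever array was left out. The other calls, Mterf3 with 0.35 (adjusted p = 0.0283) and the GTPase Noa1 with 0.42 (adjusted p = 0.0295), fall outside the rule for naming and are named after their values were seen. Both were lost without control replicate 1 or any YY1bKO array, that of Mterf3 also without control replicate 3, with adjusted p-values up to 0.106 and 0.109. Of 9 translation factors 1 was higher and 1 lower, near the same background. Mtfmt, which formylates the initiator transfer RNA, rose by 0.53 (adjusted p = 0.0393), and Pdf, which removes the formyl group from new proteins, fell by 0.43 (adjusted p = 0.0219). Both of these calls were lost without control replicate 1 or any YY1bKO array (up to 0.119 for Mtfmt and 0.0831 for Pdf), that of Mtfmt also without control replicate 3. The elongation factor Tufm had a value of -0.24 (adjusted p = 0.148) and was not called.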

How the data were processed

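Per the labels' protocols, total RNA was extracted with Trizol and biotin-labelled cRNA was hybridised to Affymetrix arrays. The authors deposited intensity values made with RMA, per the submitters' processing notes (background correction, equal array distributions, 1 value per probe set), here on a linear scale. The program that ran RMA was not given in the sources used here. It hides a shift of most transcripts and pulls in changes of dim probe sets.

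Intensities were taken to log2 without a pseudocount. After 64 control probe sets were removed, 22626 were fitted in limma 3.58.1 (R 4.3.3; lmFit and eBayes, group as sole term, 6 arrays), two-sided, with Benjamini-Hochberg adjustment over all of them. Every adjusted p is from limma, and SE is its moderated standard error. Of these probe sets 20380 had 1 symbol, 691 several and 1555 none. The fit was tested on simulated data. The labels do not state whether each array is another animal. The p-values then measure only how these samples spread, possibly a technical spread.

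Members and lists were chosen with earlier results of these data known. Genes named are, by the brightest probe set, up to 8 called rises and 8 called falls of each subunit, the Mrps18 genes, Mrps30, Mrps36, up to 4 called genes by smallest p of each further list, and Yy1. List genes without a probe set of their own were not analysed here. Alternatives tried are given in the closing section.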

Additional observations from a re-analysis of the deposited data

How the results depend on the processing

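The 3 arrays per group set the precision, and the table holds no detection calls. Of the 30 named member genes called, all kept their sign under the 16 alternatives, and 10 stayed called whichever array was left out (Mrpl19, Mrpl27, Mrpl37, Mrpl49, Mrps9, Mrps11, Mrps15, Mrps18b, Mrps24 and Mrps34). Leaving out an array means fewer samples, and the share called over all probe sets was then 6.76% to 22.5%. Over these fits Mrpl probe sets numbered 0 to 11 higher (0 without YY1bKO replicate 1 or 2) and 7 to 10 lower, and Mrps probe sets 4 to 11 higher and 6 to 17 lower, the highest counts being those without control replicate 2. The ribosomal proteins without the prefix numbered 0 to 1 higher and 1 lower, the assembly factors 1 to 4 higher and 2 lower, and the translation factors 0 to 1 higher and 0 to 3 lower.

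Deviations of same-numbered arrays from their group means correlated at -0.23, 0.09 and 0.24, so the numbers were not taken as pairs. With the replicate number as a block the counts were 1 Mrpl probe set higher, 5 Mrps higher and 6 Mrps lower, 0 proteins without the prefix higher, 1 assembly factor higher, and 0 translation factors higher and 0 lower (limma), and 12 of the 30 named genes stayed called. In that fit 9.71% of all probe sets were called. Mrpl probe sets called higher numbered 14 with dim probe sets left out and 15 with array weights. They numbered 15 with a pseudocount of 16 and 16 with the muscle marker mean as a covariate. The share called over all probe sets tested was also above the 16% of the main fit in these fits. It was 29.2% with dim probe sets left out, 24.1% with array weights, 17.2% with the pseudocount and 26.9% with the muscle covariate. Lower translation factors numbered 2, 3 and 2 with dim probe sets left out, array weights and the muscle covariate, and lower proteins without the prefix 2 with that covariate, under which all 30 named genes stayed called. With 1 row per gene, Mrps genes called lower numbered 7 by the brightest probe set and 6 by the mean over probe sets, since fewer rows are tested, and the Mrps median was 0.17 in both. All other counts stayed within 1.5 times the reported ones, and the named genes whose brightest probe set lost its call, other than under the block, are given with their values in the report.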
